A study of Mus musculus with 8 samples.

Results

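Genes of glucose use and of the response to low oxygen were followed in mouse embryonic stem cells in which 1 form of the kinase GSK3 could be inhibited with a compound. The set held 34 genes named by function: 4 carriers of glucose or lactate, 16 enzymes of glycolysis and its lactate branch, 11 other targets of the hypoxia-inducible factors (HIF), 2 enzymes of glycogen synthesis, and Hif1a. A named gene was kept where it had a value in all 8 libraries and a mean of at least 1, and 34 of 34 did. The same floor left 13959 tested genes of the 17488 with values.

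RNA was sequenced from E14 embryonic stem cells (strain 129/Ola) in 4 groups of 2 libraries. In the GSK3α line the gene of GSK3α was knocked out and a transgene gave GSK3α-L195G; in the GSK3β line the gene of GSK3β was knocked out and a transgene gave GSK3β-L132G. Replacing a bulky residue beside the ATP site by glycine is the usual way to make a kinase sensitive to an enlarged inhibitor, here 3MB-PP1. All cells were first kept for 6 h without serum in N2B27 medium, after which 3MB-PP1 was added at 5 µM for 2 h to 1 group of each line and not to the other. The labels state a treatment of "none" and no vehicle for the untreated cells, do not name the promoter of either transgene, and name 1 line for each paralog. No library came from a line without a mutant kinase, so an effect of the compound on other proteins cannot be told apart from inhibition of the mutant kinase, and a difference between the paralogs cannot be told apart from one between the 2 lines. Nothing says that the replicates were separate cultures, so a p-value here rests only on how far these libraries scattered.

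Glycolysis splits glucose into pyruvate, and lactate dehydrogenase turns pyruvate into lactate, which leaves the cell through monocarboxylate carriers. HIF is a pair of an oxygen-labile α subunit, such as HIF1α, and a stable partner; prolyl hydroxylases of the EGLN family mark the α subunit for destruction when oxygen is present. Many glycolytic genes are HIF targets themselves, and embryonic stem cells are known for a high rate of glycolysis. GSK3 is named for phosphorylating, and so restraining, glycogen synthase; it also marks β-catenin and other proteins for degradation. These known effects on glycogen synthase act on the protein, whereas the data here are transcript levels.

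HIF binds DNA at the core ACGTG or GCGTG, so the promoters were searched for both, on both strands, in RefSeq windows on GRCm38.p6 of 300 bases (250 before and 50 after each start site). RefSeq windows were found for 31 of the 34 genes. At least 1 window held a core in 27 of these 31 genes (87.1%), beside 67.6% of the 10126 tested genes with a window and 46.7% of all 27025 genes. The core was found for 14 of 16 glycolytic enzymes, 9 of 9 other HIF targets with a window, 3 of 3 carriers with a window and Hif1a, but for 0 of the 2 glycogen enzymes, Gys1 and Gbe1. The palindrome CACGTG, an E-box that contains ACGTG on both strands, was present in 6 of 31 genes (19.4%), beside 11.8% of tested genes. Many of the genes were named as known HIF targets, and a gene with several windows had more chances of a match, so a higher share is partly built in. Hk1, Aldoa, Pkm and Vegfa held a core only in windows other than their outermost one. A match is a description of the letters, not evidence of binding.

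The 4 windows below are those of the genes that responded most to 3MB-PP1 among those with a core in the 250 bases before their outermost start site; capitals mark the core on either strand (CACGT and CACGC are its reverse complements, and CACGTG is read on both strands). Slc16a3 encodes the lactate exporter MCT4, Bnip3 a mitophagy receptor, Egln3 a HIF prolyl hydroxylase and Pfkp the platelet-type phosphofructokinase. The last 14 bases of the Slc16a3 window, 13 of the Bnip3 window and 6 of the Pfkp window lie in a first exon of that gene in GENCODE M21, and the Slc16a3 window lies in an intron of a longer transcript.
Slc16a3, chr11:120948817-120949066, plus strand: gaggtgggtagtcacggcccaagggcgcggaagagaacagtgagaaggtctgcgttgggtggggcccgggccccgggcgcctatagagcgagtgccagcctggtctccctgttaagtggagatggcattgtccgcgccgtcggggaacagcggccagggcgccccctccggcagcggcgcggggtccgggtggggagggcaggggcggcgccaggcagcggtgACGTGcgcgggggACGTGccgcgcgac
Bnip3, chr7:138909507-138909756, minus strand: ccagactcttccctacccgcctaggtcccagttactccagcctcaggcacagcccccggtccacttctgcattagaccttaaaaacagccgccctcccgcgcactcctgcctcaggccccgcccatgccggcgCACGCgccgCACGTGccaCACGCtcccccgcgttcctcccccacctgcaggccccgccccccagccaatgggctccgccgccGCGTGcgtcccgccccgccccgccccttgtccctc
Egln3, chr12:54203875-54204124, minus strand: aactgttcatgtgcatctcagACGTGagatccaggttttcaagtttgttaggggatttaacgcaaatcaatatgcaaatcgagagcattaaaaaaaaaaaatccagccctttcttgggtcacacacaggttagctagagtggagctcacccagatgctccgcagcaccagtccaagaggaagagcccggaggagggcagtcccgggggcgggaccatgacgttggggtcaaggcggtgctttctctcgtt
Pfkp, chr13:6648772-6649021, minus strand: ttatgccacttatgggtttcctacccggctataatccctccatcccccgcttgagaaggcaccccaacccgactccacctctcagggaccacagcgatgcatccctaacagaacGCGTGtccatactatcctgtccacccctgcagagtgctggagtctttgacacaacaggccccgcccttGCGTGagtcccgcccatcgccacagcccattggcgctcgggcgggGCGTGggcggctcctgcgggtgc

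Slc16a3 carried 2 separate copies of ACGTG close to the start, Bnip3 had 4 marked runs including 1 CACGTG, and Egln3 had 1 ACGTG far upstream. Pfkp had 3 copies of GCGTG and no ACGTG. Slc16a3, Bnip3 and Egln3 fell with 3MB-PP1 in the GSK3β line and Pfkp rose (values below), so members with a core moved in both directions. For Vegfa the outermost window held no core, and a window at a start site inside the gene held 1 ACGTG and 1 GCGTG.

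Levels are given below as the deposited values, which are estimated counts per gene, put on 1 scale across libraries by the authors. Divided by exon length in kilobases, the highest means over the 8 libraries were those of Pgam1 (632 per kb), Pkm (456), Pgk1 (407), Aldoa (319) and Eno1 (313), all enzymes of the middle or lower part of glycolysis. Exon length here counts every base in any annotated exon of a gene, so it can exceed the length of 1 transcript. It was 1982 bases for Pgam1, 5001 for Pkm and 5379 for Eno1, and the order per kb depends on it. Undivided, the means of Pkm (2279) and Eno1 (1684) lay above that of Pgam1 (1252). Pgam1 (457 to 799 per kb) lay above Pkm (431 to 484), and Pgk1 (356 to 465) above Aldoa (309.7 to 335), in every library. The order of Aldoa and Eno1 (281 to 362) followed the line, with Eno1 the higher in all 4 GSK3α libraries and Aldoa in all 4 GSK3β libraries, and Pkm and Pgk1 changed places between libraries too. The lowest 3 were the oxygen-responsive gene Ankrd37 (1.22 per kb), the brain-type aldolase Aldoc (1.19) and the glycogen branching enzyme Gbe1 (1.1), whose ranges also overlapped. Hif1a stood at 28.7 per kb. The member with the fewest reads in any library still had an estimated 45.

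The libraries held an estimated 21.5 to 32.4 M reads on genes (M stands for 1e6), and in each line both treated libraries were deeper than both untreated ones (25.98 and 26.4 M against 21.5 and 22.7 M in the GSK3α line, 31.2 and 32.4 M against 23.8 and 28.9 M in the GSK3β line). Gsk3a had 155 and 160.0 in the untreated GSK3α line and 77.9 and 76.2 in the untreated GSK3β line, and Gsk3b had 58.2 and 54.7 in the former and 235 and 256 in the latter. Each gene was higher in the line that carries its mutant form, by a fold of 2.03 for Gsk3a and 4.29 for Gsk3b. With 3MB-PP1, Gsk3a fell to 141.2 and 141.5 in the GSK3α line (log2 change -0.16, adjusted p = 0.0345 by limma). Its response differed between the lines (log2 difference 0.19, adjusted p = 0.0244 by limma). Gsk3b did not pass with 3MB-PP1 in the GSK3β line (log2 change 0.046). All 8 pluripotency markers had values, with sums of 6176 to 6368 over the libraries. In the GSK3β line Esrrb and Nanog rose and Tdgf1 and Utf1 fell with 3MB-PP1 (log2 changes 0.22, 0.14, -0.24 and -0.20). These were 50% of the 8, beside 14.9% of all tested genes. Between the untreated lines 6 of the 8 passed (75%, beside 48.2% of all tested genes). The sum of 4 neural markers was 149 and 160 in the untreated and 213 and 222 in the treated GSK3β libraries. Most of it was Tubb3 (120.2 and 129 untreated, 182 and 176 treated), which passed with Nes, while Sox1 (4.07 and 4.42, then 3.33 and 3.3) and Pax6 (2.89 and 3.53, then 3.54 and 2.9) did not pass. Fibroblast markers had values for 4 of 8 (Col3a1, Prrx1, Lum and Dcn had none) and summed to 11.6 to 11.9 in the untreated GSK3α and 16.3 to 17.9 in the untreated GSK3β libraries, and trophoblast markers, 5 of 6 with values (Elf5 had none), to 57.8 to 57.9 and 71.1 to 72.5. Thy1, Twist1, Gata3, Krt8 and Krt18 of these lists were higher in the untreated GSK3β line past the threshold, where 22.3% of all tested genes were. Col1a1 and Eomes did not pass, with log2 differences of -0.048 and -0.056. Primitive endoderm markers summed to at most 12.1 in any library, and Gata4 of this list was lower in the untreated GSK3β line past the threshold (log2 difference -0.33). Cdx2, below the floor for testing, went from 0.195 and 0.321 to 2.43 and 3.27 in the GSK3β line. The part of depth and of these markers in the results below was not tested, and fewer cells of a type cannot be told apart from less RNA per cell.

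**Figure D1:**
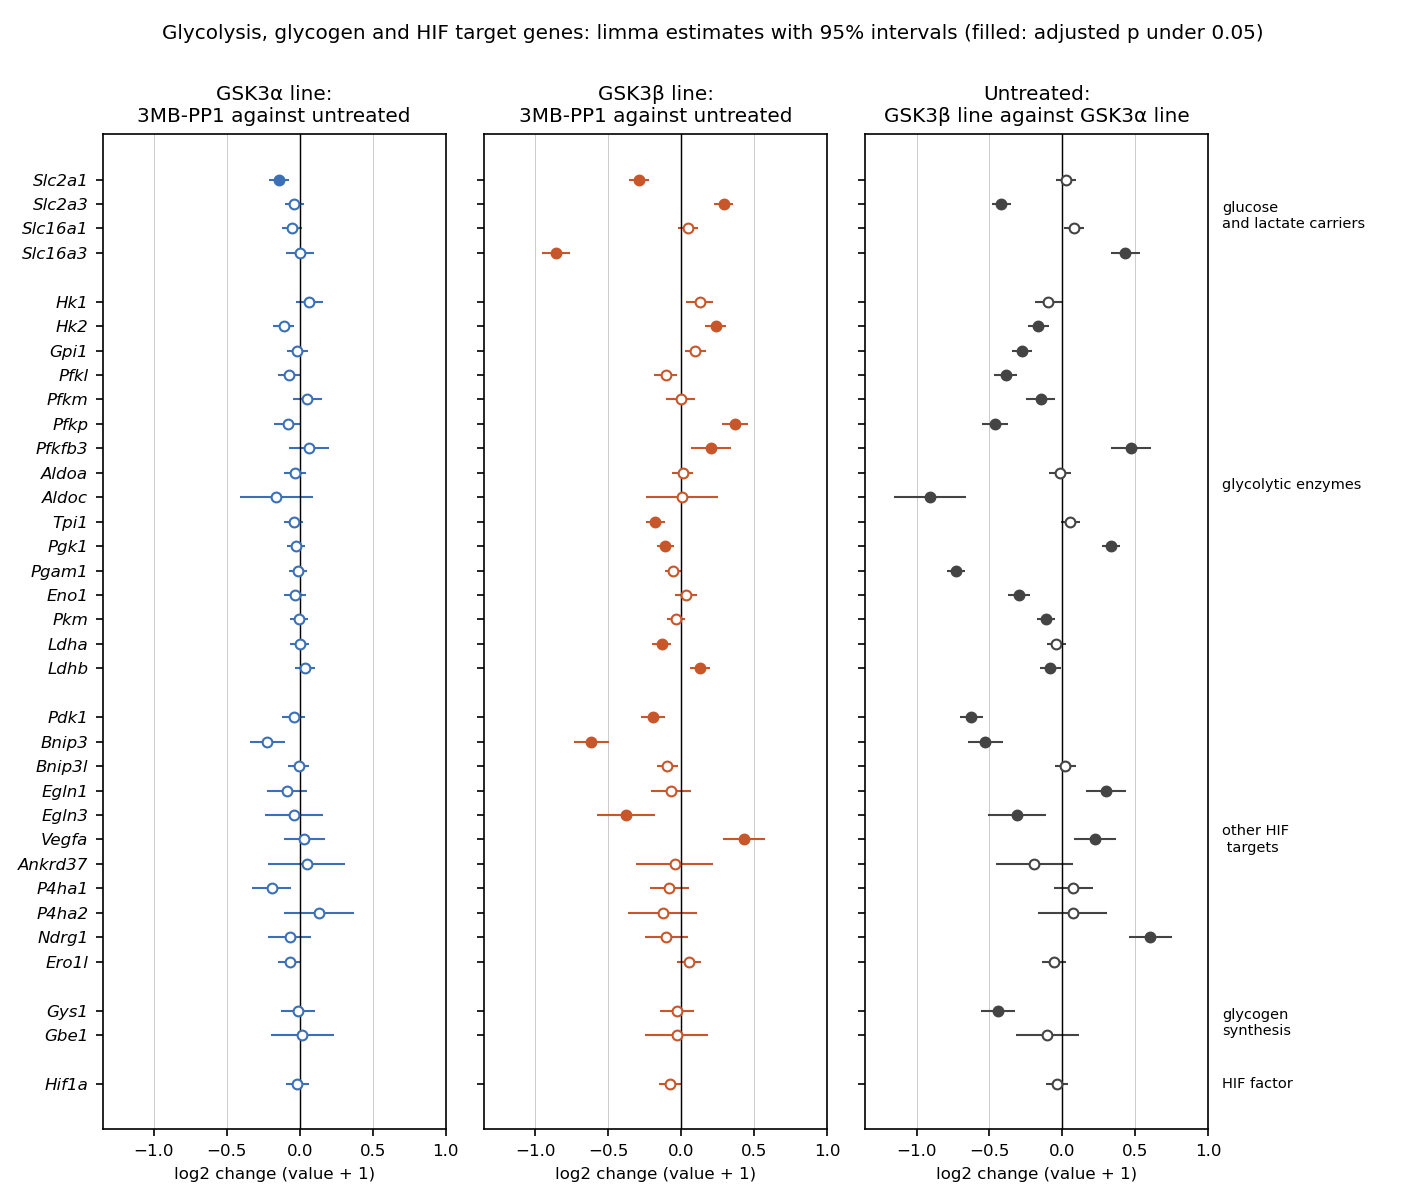
Log2 change of each of the 34 genes on the scale log2(value + 1), with 95% intervals from limma; the panels show 3MB-PP1 against untreated in the GSK3α line, the same in the GSK3β line, and the untreated GSK3β line against the untreated GSK3α line, and filled points have an adjusted p under 0.05. In the GSK3α line 1 point is filled, in the GSK3β line 14, and between the untreated lines 21.

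With 3MB-PP1 in the GSK3α line, the log2 changes of the 34 genes lay between -0.22 and 0.13, and 1 gene passed the test (2.94%, beside 0.881% of all tested genes), as a fall (0.616% of all tested genes fell). That gene was Slc2a1, the glucose transporter GLUT1, which had 227 and 234 in the untreated and 207 and 209.7 in the treated libraries. The groups did not overlap, and the log2 change was -0.14 (SE 0.032, adjusted p = 0.0416) by limma, with p-values adjusted by Benjamini-Hochberg over the 13959 genes. The call was lost without any 1 of 6 libraries (each of the 4 GSK3α libraries and each of the 2 treated GSK3β libraries, adjusted p up to 0.405), and with replicate number as a block.

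Bnip3 had 60.05 and 57.6 in the untreated and 51.2 and 49.4 in the treated GSK3α libraries, a log2 change of -0.22 (SE 0.057, adjusted p = 0.0801) that missed the threshold. It passed when either untreated GSK3β library was left out and when the line was fitted on its own. P4ha1, a collagen prolyl hydroxylase, had 21.00 and 20.3 before and 17.8 and 18.1 after (log2 change -0.19, SE 0.064, adjusted p = 0.216). Hk2, the inducible hexokinase, had 121 and 125 and then 113 and 114 (log2 change -0.11, SE 0.035, adjusted p = 0.176). In these genes the 2 treated libraries lay below the 2 untreated ones without overlap, but the differences did not pass the test. The share of all tested genes without overlap in this line was not counted. With 2 libraries a group such an order arises easily without a change, so here and for Slc2a1 it adds little.

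Of the 16 glycolytic enzymes 0 passed in the GSK3α line, with log2 changes from -0.16 for Aldoc to 0.066 for Hk1 and a median of -0.022; of the 11 other HIF targets 0 passed, with a median of -0.042, beside a median of 0.0070 over all tested genes. The intervals bound what could have been missed: for Pkm, the pyruvate kinase, it ran from -0.066 to 0.058, and for Pgk1, phosphoglycerate kinase, from -0.086 to 0.034. Gys1, the glycogen synthase of most tissues, had 37.5 and 41.1 untreated and 37.8 and 40.01 with the compound, with an interval of -0.13 to 0.10. Hif1a had 175 and 173 and then 165 and 179, and its groups overlapped.

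In the GSK3β line, 14 of the 34 genes changed with 3MB-PP1 (41.2%, beside 14.9% of all tested genes): 6 rose (7.49% of all tested genes did) and 8 fell (7.44% did). The median absolute log2 change was 0.10 for the 34 genes and 0.084 over all tested genes. Among the 34 the SE ran from 0.029 for the abundant Pgk1 to 0.13 for the scarce Ankrd37. Abundant genes could thus pass at smaller changes, and the shares here and in the other comparisons were not matched for abundance. Vegfa, Pfkp, Slc2a3, Hk2, Pfkfb3 and Ldhb rose. Slc16a3, Bnip3, Egln3, Slc2a1, Pdk1, Tpi1, Ldha and Pgk1 fell. In all 14 the treated and untreated libraries of the line did not overlap, which adds little to the calls because both come from the same values. The share of all tested genes without overlap was not counted. The largest change was the fall of Slc16a3, followed by the fall of Bnip3 and the rise of Vegfa.

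Among the carriers, Slc16a3 (MCT4, chr11:120948480-120960868, plus strand, GENCODE M21) had 75.3 and 72.5 in the untreated and 38.3 and 42.4 in the treated GSK3β libraries. Its mean was 45.4% lower, a log2 change of -0.86 (SE 0.046, adjusted p = 5.04e-10). Slc16a1, which encodes the other lactate carrier of the set, MCT1, had 124 and 122 before and 128 and 126 after (log2 change 0.048, SE 0.033, adjusted p = 0.361) and did not pass. The 2 glucose transporters passed in opposite directions. Slc2a1 (GLUT1, chr4:119108711-119137983, plus strand) had 239 and 229 untreated and 189 and 195 treated, a fall of 18.1% (log2 change -0.29, SE 0.032, adjusted p = 4.62e-06). Slc2a3 (GLUT3, chr6:122727809-122801640, minus strand), the more abundant of the pair per kilobase, had 1152 and 1226 untreated and 1466 and 1447 treated, a rise of 22.5% (log2 change 0.29, SE 0.031, adjusted p = 2.45e-06).

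Among the enzymes, those of the early, regulated steps accounted for 3 of the 4 rises. Hk2, which traps glucose in the cell by phosphorylating it, had 111 and 108 untreated and 132 and 126 treated (log2 change 0.24, SE 0.035, adjusted p = 8.92e-05). Pfkp (chr13:6579768-6648777, minus strand), 1 of 3 phosphofructokinase subunits, had 146 and 156 untreated and 206 and 186 treated (log2 change 0.37, SE 0.043, adjusted p = 7.17e-06). Pfkfb3, whose product makes the allosteric activator of phosphofructokinase, had 20.4 and 22.1 untreated and 23.7 and 25.6 treated (log2 change 0.21, SE 0.065, adjusted p = 0.0376). The treated libraries were above the untreated ones in each of these 3 genes. Part of the Pfkp exons (5.58%) overlaps exons of Pitrm1 on the other strand, and the strand setting of the counts is not given in the sources used here.

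The other 2 phosphofructokinase subunits did not pass. Pfkl, the liver type, had 146 and 147 untreated and 138 and 134 treated (log2 change -0.11, SE 0.036, adjusted p = 0.0577), and Pfkm, the muscle type, had 35.5 and 36.6 untreated and 36.4 and 35.7 treated (log2 change -0.0021, SE 0.048, adjusted p = 0.983). Hk1, the constitutive hexokinase, had 53.8 and 54.5 untreated and 61.1 and 57.4 treated (log2 change 0.13, SE 0.045, adjusted p = 0.064), and Gpi1, glucose phosphate isomerase, had 315 and 319.9 untreated and 349 and 332 treated (log2 change 0.099, SE 0.034, adjusted p = 0.0569). In Hk1, Gpi1 and Pfkl the treated libraries did not overlap the untreated ones, and each of the 3 passed under at least 1 alternative.

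The 3 falls among the enzymes were later in the pathway. Tpi1, triose phosphate isomerase, had 376 and 357 untreated and 321 and 326 treated (log2 change -0.18, SE 0.031, adjusted p = 0.000525). Pgk1, which makes the first ATP of glycolysis, had 1043 and 1041 untreated and 959 and 975 treated (log2 change -0.11, SE 0.029, adjusted p = 0.0152). Ldha, the lactate dehydrogenase subunit that favours lactate formation, had 913 and 876 untreated and 806 and 825 treated (log2 change -0.13, SE 0.031, adjusted p = 0.00617). Its partner Ldhb went the other way, from 325 and 339 to 361 and 366 (log2 change 0.13, SE 0.033, adjusted p = 0.00968). Tpi1, Pgk1 and Ldha have processed copies elsewhere in the mouse genome, and how reads that match several copies were counted is not given in the sources used here. The set was not searched for such copies, so the limit may hold for other enzymes too.

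The remaining enzymes of the lower pathway showed small differences that did not pass. Aldoa, the main aldolase, had 909 and 946 untreated and 947 and 922 treated, with an interval of the log2 change from -0.062 to 0.084. The intervals ran from -0.11 to 0.0086 for Pgam1 (phosphoglycerate mutase), from -0.04 to 0.11 for Eno1 (enolase) and from -0.093 to 0.03 for Pkm. These are among the most abundant transcripts of the set, and a change in them as large as that of Slc16a3 lies outside their intervals. Aldoc, at 2.85 and 2.18 untreated and 2.43 and 2.61 treated, had a wider interval, from -0.24 to 0.26.

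**Figure D2:**
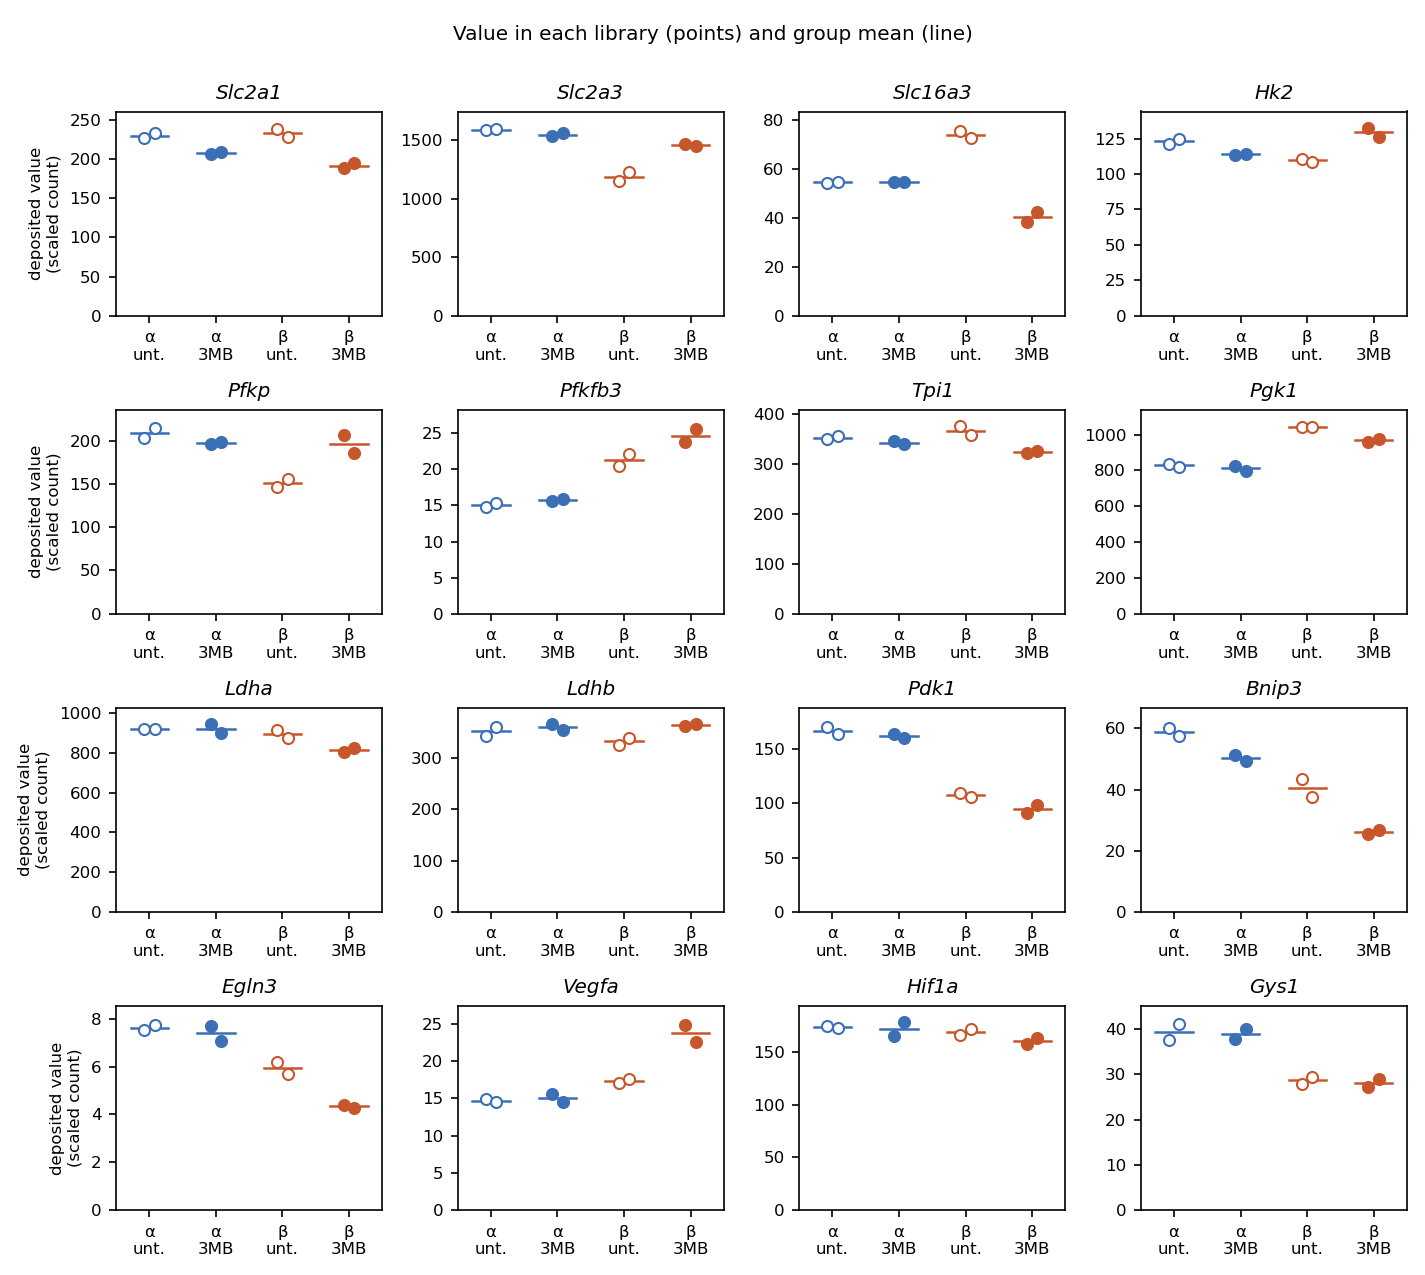
Deposited value in each of the 8 libraries (points, open for untreated and filled for 3MB-PP1) and the group mean (line) for the 14 genes past the threshold in the GSK3β line, with Hif1a and Gys1 beside them; every vertical axis starts at 0. The 2 treated GSK3β libraries of Slc16a3 and Bnip3 lie below all 6 other libraries, and those of Vegfa lie above them.

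Among the other HIF targets, Bnip3 (chr7:138890836-138909519, minus strand) had 43.5 and 37.6 in the untreated and 25.4 and 26.7 in the treated GSK3β libraries, a fall of 35.8% (log2 change -0.62, SE 0.057, adjusted p = 4.05e-07). Its relative Bnip3l, also called NIX, had 105 and 105 untreated and 97.8 and 99.6 treated (log2 change -0.093, SE 0.034, adjusted p = 0.0723) and did not pass. Egln3 (chr12:54178981-54203860, minus strand), the prolyl hydroxylase PHD3, had 6.22 and 5.71 untreated and 4.41 and 4.28 treated (log2 change -0.38, SE 0.095, adjusted p = 0.00955). Egln1, the prolyl hydroxylase PHD2, had 22.05 and 21.96 untreated and 21.9 and 19.96 treated (log2 change -0.071, SE 0.065, adjusted p = 0.518). Its higher treated library lay just below both untreated ones, and it did not pass. Pdk1, the kinase that turns off pyruvate dehydrogenase, had 109.9 and 106 untreated and 90.9 and 98.1 treated (log2 change -0.19, SE 0.038, adjusted p = 0.0017).

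Vegfa (chr17:46016993-46032369, minus strand), the angiogenic growth factor, was the 1 of these 11 targets to rise. It had 17.04 and 17.5 untreated and 24.9 and 22.5 treated, a rise of 37.1% (log2 change 0.43, SE 0.068, adjusted p = 0.000195). The 7 others did not pass: Egln1 and Bnip3l above, Ankrd37 with 1.76 and 1.6 and then 1.53 and 1.67, P4ha1 with 20.6 and 23.1 and then 20.9 and 20.2, P4ha2 with 9.54 and 7.66 and then 7.24 and 8.3, Ndrg1, a stress-induced gene, with 22.7 and 24.9 and then 22.8 and 21.4, and Ero1l, an oxidase of the endoplasmic reticulum, with 71.8 and 69.1 and then 72.5 and 73.96.

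Hif1a itself had 167 and 172 untreated and 158 and 164 treated in the GSK3β line (log2 change -0.076, SE 0.037, adjusted p = 0.185, interval -0.15 to 0.0014). Gys1, whose product is the substrate that gave GSK3 its name, had 27.9 and 29.4 untreated and 27.2 and 28.9 treated (log2 change -0.03, SE 0.056, adjusted p = 0.777, interval -0.15 to 0.087), and 6.47% of its exon bases overlap Ruvbl2 on the other strand. Gbe1 had 6.14 and 5.19 untreated and 5.58 and 5.46 treated (interval -0.24 to 0.19). The 3 genes did not pass, and the libraries of Gys1 and Gbe1 overlapped between the groups.

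How many genes passed in the GSK3β line depended on the libraries used: 8 of the 34 passed without replicate 1 of its treated libraries, 9 without replicate 1 of its untreated libraries, 11 without replicate 2 of its treated libraries, and 17 without either untreated GSK3α library. Slc2a1, Slc2a3, Slc16a3, Hk2, Pfkp, Tpi1, Bnip3 and Vegfa kept their calls without any 1 library and under every other alternative, whereas Pfkfb3 (adjusted p up to 0.282), Pgk1 (up to 0.178), Ldha (up to 0.111), Ldhb (up to 0.108), Pdk1 (up to 0.0756) and Egln3 (up to 0.0965) each lost theirs in at least 1 case.

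In the GSK3β line both the glycolytic enzymes and the other HIF targets had members that rose and members that fell, and the difference between the lists was not tested. Of 16 enzymes 7 passed (43.8%, beside 14.9% of all tested genes), 4 up and 3 down, with a median log2 change of 0.0098, beside -0.0057 over all tested genes. Of 11 other HIF targets 4 passed (36.4%), 1 up and 3 down, with a median of -0.093. Counting those that did not pass, 9 of the 11 changes were negative, beside 7247 of the 13959 over all tested genes and 8 of the same 11 in the GSK3α line. The 2 medians differed by 0.10, and across the alternatives by 0.093 to 0.11, where replicate libraries of a group gave this difference an SD of 0.055. In the GSK3α line the same difference was 0.020 and ranged from -0.025 without replicate 2 of the treated GSK3α libraries to 0.046. Without replicate 1 of the treated GSK3β libraries 3 enzymes and 2 other HIF targets passed, and without replicate 1 of the untreated ones 3 enzymes did.

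**Figure D3:**
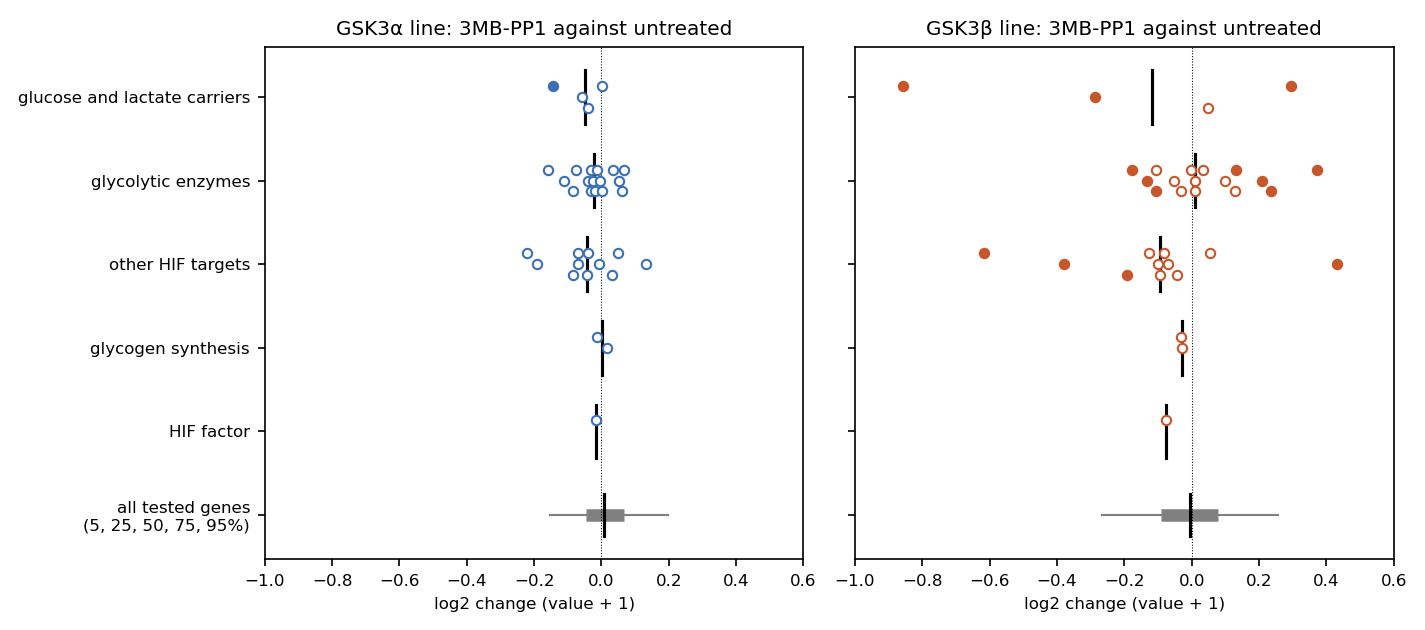
Log2 change with 3MB-PP1 in the GSK3α line and in the GSK3β line for the genes of each list (points, filled where the adjusted p was under 0.05; black bar, list median) beside all 13959 tested genes (grey box, 25th to 75th percentile; grey line, 5th to 95th). In the GSK3β line the median of the glycolytic enzymes is 0.0098 and that of the other HIF targets -0.093, with Bnip3 and Vegfa at opposite ends.

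The response to 3MB-PP1 differed between the lines for 6 of the 34 genes (17.6%, beside 6.53% of all tested genes), 4 with a higher response in the GSK3β line (3.62% of all tested genes) and 2 with a lower one (2.90%). The difference of the log2 changes, GSK3β line minus GSK3α line, was -0.86 (SE 0.066, adjusted p = 1.32e-07) for Slc16a3, whose GSK3α libraries had 54.2 and 54.7 untreated and 54.5 and 54.7 treated. For Bnip3, which was lower with the compound in both lines, it was -0.39 (SE 0.081, adjusted p = 0.00574). These 2 genes lay in the lower direction.

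Pfkp was at 203 and 215 untreated and 196 and 198 treated in the GSK3α line, and its difference was 0.45 (SE 0.061, adjusted p = 0.000117). Hk2 gave 0.35 (SE 0.049, adjusted p = 0.00018). For Slc2a3, with 1583 and 1593 untreated and 1533 and 1560.2 treated in the GSK3α line, the difference was 0.33 (SE 0.044, adjusted p = 0.000108). The log2 changes of Pfkp, Hk2 and Slc2a3 were positive in the GSK3β line and negative in the GSK3α line. In the GSK3α line they were small (-0.084, -0.11 and -0.038) and did not pass. Treated and untreated libraries of these genes did not overlap in either line, but the share of all tested genes without overlap was not counted. Vegfa, at 14.9 and 14.5 untreated and 15.6 and 14.5 treated there, gave 0.40 (SE 0.096, adjusted p = 0.0169), but lost the call without replicate 2 of the treated GSK3α libraries, replicate 1 of the untreated GSK3β libraries or replicate 1 of the treated GSK3β libraries (adjusted p up to 0.135). The other 5 kept theirs under every alternative.

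For the 8 further genes called in the GSK3β line the difference between the lines did not pass: Slc2a1 (log2 difference -0.14, SE 0.046, adjusted p = 0.0697), Tpi1 (log2 difference -0.14, SE 0.044, adjusted p = 0.0696), Ldha (adjusted p = 0.0784), Pdk1 (0.107), Egln3 (0.145), Ldhb (0.242), Pgk1 (0.262) and Pfkfb3 (0.391). Slc2a1, Tpi1 and Ldha passed, as a lower response in the GSK3β line, when libraries were rescaled to equal sums or replicate 2 of the untreated GSK3β libraries was left out, and Pdk1 passed without replicate 2 of the treated GSK3β libraries.

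Carriers and enzymes that do the same step were also set against each other, as the share of 1 gene in the summed level per kilobase of exon. The size of a share depends on the exon lengths, which count every base in any annotated exon. Slc2a3 made up 69.98 and 72.2% of the Slc2a1 and Slc2a3 total in the untreated and 79.01 and 78.3% in the treated GSK3β libraries, next to 77.2 and 76.7% and then 78.2 and 78.3% in the GSK3α line. The treated GSK3β libraries thus lay within 1 percentage point of the treated GSK3α libraries. Slc16a3 made up 33.5 and 33.1% of the Slc16a1 and Slc16a3 total and then 19.9 and 21.8%, next to 27.9 and 28.2% and 29.1 and 28.6% in the GSK3α line, so that the untreated GSK3β libraries were above and the treated ones below all 4 GSK3α libraries.

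Pfkp was 25.1 and 26.1% untreated and 32.8 and 31.02% treated of the 3 phosphofructokinase subunits in the GSK3β line, and 27.5 and 27.7% and then 26.7 and 27.3% in the GSK3α line. The exon length of Pfkp, 13401 bases against 6675 for Pfkl and 3340 for Pfkm, lowers its share. Undivided, its mean over the 8 libraries (188) lay above those of Pfkl (164) and Pfkm (38.5). Bnip3 was 41.3 and 37.8% and then 30.7 and 31.3% of the Bnip3 and Bnip3l total, and 49.7 and 48.4% and then 45.3 and 45.3% in the GSK3α line. Ldha was 57.2 and 55.1% and then 51.4 and 51.7% of the Ldha and Ldhb total in the GSK3β line. Hk2 was 74.6 and 73.99% and then 75.6 and 75.9% of the Hk1 and Hk2 total in the GSK3β line, and 75.6 and 74.8% and then 73.1 and 72.5% in the GSK3α line, so its treated libraries lay above the untreated ones in the former and below them in the latter. These shares are descriptions of the same values and were not tested.

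**Figure D4:**
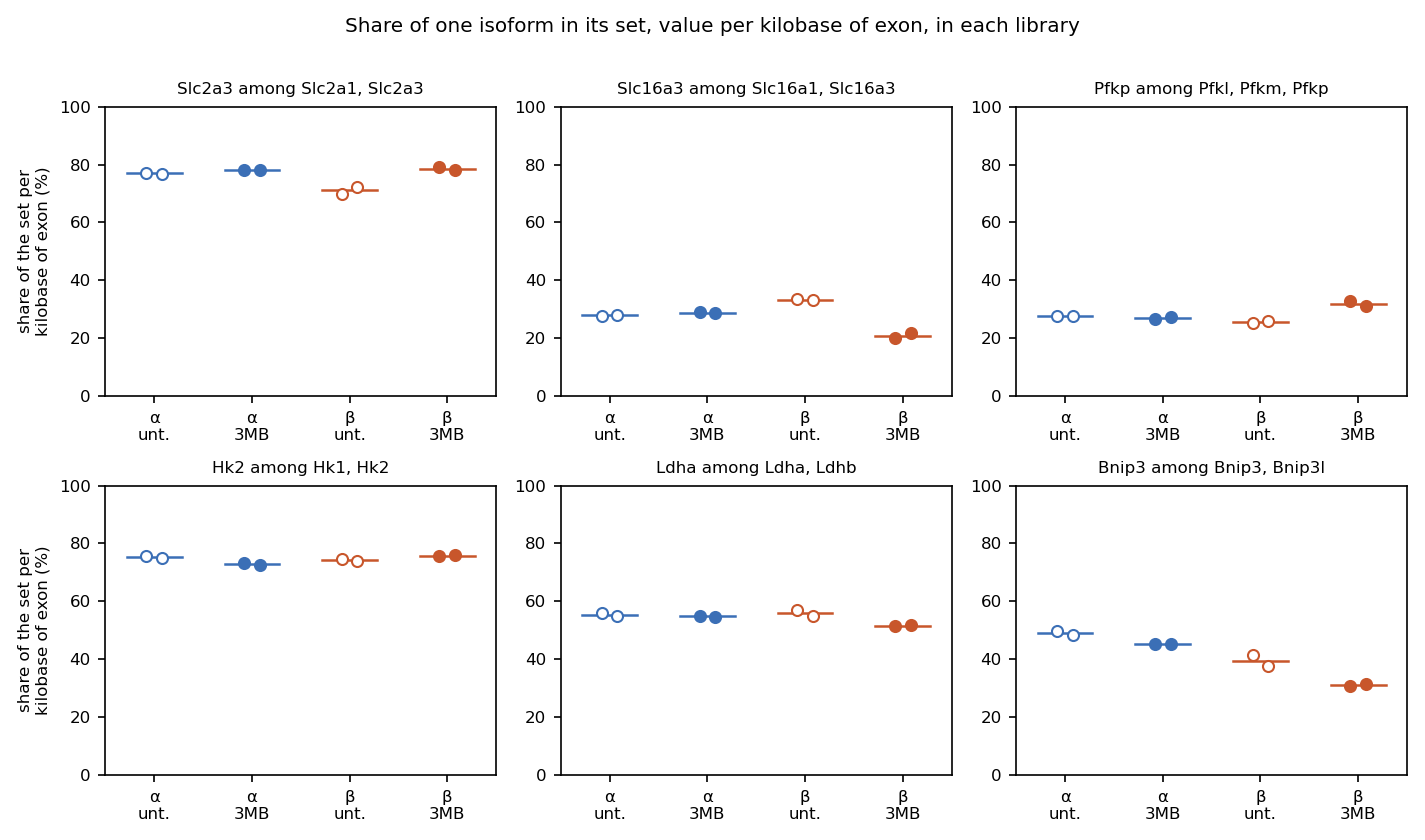
Share of 1 gene in the summed level per kilobase of exon of its set, in percent, in each of the 8 libraries (points, open for untreated and filled for 3MB-PP1; line, group mean), for 6 sets. In the GSK3β line the shares of Slc16a3, Bnip3 and Ldha are lower and those of Slc2a3 and Pfkp higher in the treated libraries.

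Before any inhibitor the lines already differed in these genes: 21 of the 34 passed between the untreated lines (61.8%, beside 48.2% of all tested genes). In the GSK3β line 6 were higher (22.3% of all tested genes were) and 15 lower (25.9% were). Of the 16 glycolytic enzymes 10 were lower and 2 higher, whereas the other HIF targets split into 3 higher and 3 lower. The comparison shares the untreated GSK3β libraries with the response of that line, so the directions of the 2 are not independent of each other.

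The lower enzymes were led by Aldoc (5.34 and 5.83 in the GSK3α line, 2.85 and 2.18 in the GSK3β line, log2 difference -0.91, SE 0.12, adjusted p = 4.28e-06) and Pgam1 (1574 and 1583 against 968 and 933, log2 difference -0.73, SE 0.029, adjusted p = 5.27e-13). Pfkp (203 and 215 against 146 and 156, log2 difference -0.46, SE 0.043, adjusted p = 6.91e-08), Pfkl (-0.39), Eno1 (-0.30), Gpi1 (-0.28) and Hk2 (-0.16) were also lower on the log2 scale. The 2 higher enzymes were Pfkfb3 (log2 difference 0.47, SE 0.065, adjusted p = 9.46e-06) and Pgk1 (834 and 821 against 1043 and 1041, log2 difference 0.33, SE 0.029, adjusted p = 2.19e-08). So 10 of the 16 enzymes were lower in the GSK3β line, with Pgk1 and Pfkfb3 in the other direction.

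Slc2a3 had 1583 and 1593 in the untreated GSK3α line and 1152 and 1226 in the untreated GSK3β line (log2 difference -0.42, SE 0.031, adjusted p = 3.34e-09), and Slc16a3 was higher in the GSK3β line (log2 difference 0.43, SE 0.046, adjusted p = 4.08e-07). Among the other HIF targets Pdk1 (170.3 and 164 against 109.9 and 106, log2 difference -0.62, SE 0.038, adjusted p = 1.73e-10), Bnip3 (log2 difference -0.53, SE 0.057, adjusted p = 4.31e-07) and Egln3 (log2 difference -0.31, SE 0.095, adjusted p = 0.0111) were lower in the GSK3β line. Ndrg1 (15.4 and 15.2 against 22.7 and 24.9, log2 difference 0.60, SE 0.071, adjusted p = 1.24e-06), Egln1 (log2 difference 0.30, SE 0.065, adjusted p = 0.000982) and Vegfa (log2 difference 0.22, SE 0.068, adjusted p = 0.0108) were higher. Gys1 was lower, at 37.5 and 41.1 in the GSK3α line and 27.9 and 29.4 in the GSK3β line (log2 difference -0.44, SE 0.056, adjusted p = 3.25e-06), and Hif1a did not pass (log2 difference -0.038, SE 0.037, adjusted p = 0.408).

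With 3MB-PP1 the treated libraries of Slc2a3, at 1466 and 1447, moved toward the 1583 and 1593 of the untreated GSK3α line, and those of Pfkp, at 206 and 186, toward its 203 and 215. Slc16a3, at 38.3 and 42.4, went from above the GSK3α libraries to below them. Bnip3, Egln3 and Pdk1 moved further from the GSK3α line, as did Vegfa in the other direction. The calls of Pfkm, Pkm, Ldhb, Egln3 and Vegfa between the untreated lines were each lost under at least 1 alternative; rescaled to equal sums, 7 glycolytic enzymes were lower and 3 higher, and without replicate 2 of either untreated line 4 of the other HIF targets passed in place of 6.

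Other genes of the same pathways were counted from lists of genes outside the set. In the GSK3α line 0 of 18 further glycolytic and gluconeogenic enzymes, 0 of 10 genes of the pentose phosphate pathway, 0 of 13 of pyruvate entry into mitochondria, 0 of 20 further glycogen genes and 0 of 17 HIF factors and regulators passed. Over all tested genes 0.881% did, so lists of this size could hold 0 without differing from the rest. Of 29 further HIF targets 1 passed: Kdm3a, a histone demethylase named here because its call was seen (log2 change -0.13, SE 0.03, adjusted p = 0.0477), which lost the call under 10 of the alternatives.

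In the GSK3β line 4 of the 29 further HIF targets were higher and 6 lower (34.5%, beside 14.9% of all tested genes). Ccng2, an atypical cyclin, had 21.2 and 19.7 untreated and 10.3 and 10.5 treated (log2 change -0.91, SE 0.067, adjusted p = 1.73e-08), beside -0.86 for Slc16a3. Ak4, a mitochondrial adenylate kinase, had 182 and 204 and then 271 and 247 (log2 change 0.42, SE 0.044, adjusted p = 2e-06), after 436 and 439 in the untreated GSK3α line. Stc2, a secreted glycoprotein, rose from 7.04 and 6.92 to 9.64 and 9.36 (log2 change 0.40, SE 0.09, adjusted p = 0.00526). Both directions therefore occurred in this list too.

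Of 17 HIF factors and regulators 1 was higher and 4 lower (29.4%, beside 14.9% of all tested genes). Epas1, which encodes HIF2α, fell from 55.2 and 53.5 to 45.8 and 43.7 (log2 change -0.27, SE 0.046, adjusted p = 0.000386), and Arnt2, a partner of the α subunits, from 13.3 and 11.8 to 9.34 and 10.7 (log2 change -0.30, SE 0.086, adjusted p = 0.0244). Siah2, a ubiquitin ligase that acts on prolyl hydroxylases, rose from 6.1 and 6.73 to 8.08 and 8.5 (log2 change 0.33, SE 0.098, adjusted p = 0.0303).

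At pyruvate entry into mitochondria, 2 of 13 genes were higher and 3 lower (38.5%, beside 14.9% of all tested genes). The 2 pyruvate dehydrogenase phosphatases went opposite ways: Pdp2 rose from 20.2 and 19.6 to 26.4 and 25.99 (log2 change 0.38, SE 0.061, adjusted p = 0.00024) and Pdp1 fell from 15.1 and 15.4 to 12.5 and 11.3 (log2 change -0.33, SE 0.076, adjusted p = 0.00519). Pcx, pyruvate carboxylase, fell from 58.6 and 59.7 to 51.1 and 51.4 (log2 change -0.20, SE 0.041, adjusted p = 0.00203).

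Of 20 further glycogen genes 2 were higher and 0 lower, a share below the 14.9% over all tested genes: Gaa, the lysosomal glucosidase that breaks down glycogen, rose from 82.5 and 85.04 to 109.6 and 101 (log2 change 0.33, SE 0.04, adjusted p = 1.38e-05), and Pgm1, a phosphoglucomutase, from 42.02 and 40.7 to 46.4 and 45.8 (log2 change 0.15, SE 0.046, adjusted p = 0.028). Of 18 further glycolytic and gluconeogenic enzymes 3 were higher and 1 lower (22.2%, beside 14.9% of all tested genes). Pck2, the mitochondrial enzyme that makes phosphoenolpyruvate, rose (log2 change 0.31, SE 0.068, adjusted p = 0.00416), as did Fbp2, a fructose bisphosphatase (log2 change 0.29, SE 0.082, adjusted p = 0.0239). Eno3, the muscle enolase, fell (log2 change -0.32, SE 0.09, adjusted p = 0.0194). In the pentose phosphate pathway 1 of 10 was higher, Rpe (log2 change 0.23, SE 0.045, adjusted p = 0.00127), and 2 were lower, H6pd (log2 change -0.18, SE 0.055, adjusted p = 0.0367) and Prps2 (log2 change -0.17, SE 0.042, adjusted p = 0.00794). These 3 genes were 30% of that list, beside 14.9% of all tested genes. Without replicate 1 of the treated GSK3β libraries 5 further HIF targets, 1 HIF regulator, 3 genes of pyruvate entry, 1 glycogen gene, 1 glycolytic enzyme and 1 pentose phosphate gene passed. Without replicate 1 of the untreated GSK3β libraries 3 HIF regulators, 3 genes of pyruvate entry and 1 gene in each of the last 3 lists did, and without replicate 2 of the treated ones 3 HIF regulators, 2 genes of pyruvate entry and 1 glycogen gene. Of the genes named here Ccng2, Ak4, Epas1, Pdp2, Pcx, Gaa and Rpe kept their calls in the GSK3β line under every alternative.

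The response to 3MB-PP1 differed between the lines for 4 further HIF targets in the higher and 2 in the lower direction, for 1 of 17 HIF factors and regulators (lower), and for 1 gene of pyruvate entry, 1 glycogen gene and 1 glycolytic or gluconeogenic enzyme (all higher), with 1 gene each way in the pentose phosphate pathway. Over all tested genes 6.53% passed, and the shares of the regulators (5.88%), pyruvate entry (7.69%) and the further enzymes (5.56%) were near it. For Ccng2, at 18.9 and 18.9 untreated and 16.03 and 16.9 treated in the GSK3α line, the difference of the log2 changes was -0.72 (SE 0.094, adjusted p = 7.87e-05), and for Ak4, at 436 and 439 and then 428 and 427 there, it was 0.45 (SE 0.063, adjusted p = 0.000153). Without replicate 1 of the treated libraries of either line 3 further HIF targets and 0 genes of pyruvate entry or of the pentose phosphate pathway passed. Between the untreated lines 14 of the 29 further HIF targets were lower and 4 higher in the GSK3β line, beside 5 lower and 3 higher of the 17 factors and regulators. Over all tested genes 25.9% were lower and 22.3% higher, so the share of regulators that passed (47.1%) was near the 48.2% of all genes.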

How the data were processed

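The deposited table holds signal values for 48321 genes in 8 libraries: estimated counts per gene that the authors put on 1 scale, so that the third quartile was equal in all libraries to within 0.0548%, as its values show. They are not raw counts, so no count model was used. TopHat2, Partek and mm10 are named in the submitters' processing notes without versions; gene annotation, strand setting and filters are not given in the sources used here. Total RNA (0.5 µg) went into TruSeq libraries, per the labels' protocols. Genes without values (30833) and those with a mean under 1 (3529) were left out.

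Values were taken as log2(value + 1), which understates folds of low genes. The test was limma-trend (limma 3.58.1, R 4.3.3), two-sided, with 1 mean per group and 4 residual degrees of freedom. A further 14.4 prior degrees of freedom came from a trend of the variance shared by all tested genes. P-values were adjusted by Benjamini-Hochberg over all 13959 genes in each of 4 comparisons, with a threshold of 0.05. Intervals are at 95%. The script was tested on simulated data. Reads per library were estimated as the sum of the values divided by the smallest one. The median SE was 0.0634 within a line and 0.0897 for the difference.

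All 34 members were named; of each further list the text names up to 3 genes with the largest change past the threshold and a mean of at least 5 in the higher group. Members and lists were chosen with earlier results of these data known, so no list was tested. Promoters are RefSeq's (GRCm38.p6). Gene positions, exon lengths and overlaps are from GENCODE M21, and an exon length counts every base in any exon of the gene. The labels do not say whether same-numbered libraries of the 2 treatments of a line were paired. The alternatives were the added constant, the floor on low values, 2 rescalings, limma-voom, a replicate block, separate fits per line and each library left out.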

Additional observations from a re-analysis of the deposited data

Results flagged for a closer look

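The response to 3MB-PP1 differed between the lines, by the test of the difference itself in limma, for 6 genes. The log2 difference, GSK3β line minus GSK3α line, was -0.86 for Slc16a3, -0.39 for Bnip3, 0.33 for Slc2a3, 0.35 for Hk2, 0.45 for Pfkp and 0.40 for Vegfa. For Hk2, Slc2a3 and Pfkp the log2 change was positive in the GSK3β line and negative in the GSK3α line (-0.11, -0.038 and -0.084 in the latter). The GSK3α change of each did not pass the threshold. Each line is 1 line of cells, so the paralog and the line cannot be told apart.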

How the results depend on the processing

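With replicate number as a block (a paired analysis) 0 of the 34 genes passed in the GSK3α line, where 1 had. In the GSK3β line 14 passed, 6 for the difference and 20 between the untreated lines. The correlation of same-numbered libraries' deviations was -0.044 in the GSK3α line and -0.045 in the GSK3β line. Such values cannot show whether these libraries were paired, and the labels do not say. With each line fitted on its own 2 passed in the GSK3α line, Slc2a1 and Bnip3. Leaving out 1 library gave 0 to 2 genes in the GSK3α line, 8 to 17 in the GSK3β line, 5 to 9 for the difference and 17 to 21 between the untreated lines; where an arm was left with 1 library, that library was assumed to vary like the others. Over all genes, leaving out 1 library gave 16 to 186 calls in the GSK3α line (123 with all), 864 to 2277 in the GSK3β line (2084 with all) and 353 to 1339 for the difference (911 with all). Rescaling to equal sums turned the split between the untreated lines over all genes from 3111 higher and 3612 lower to 4023 higher and 2803 lower, and that of the 34 genes from 6 and 15 to 8 and 12. No call of the 34 genes reversed under any alternative run; the causes were not tested. The calls kept under every alternative run were 8 of 14 in the GSK3β line, 5 of 6 for the difference and 16 of 21 between the untreated lines.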
